A study of Mus musculus with 16 samples.

Results

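The immunoglobulin genes are the segments from which B cells and plasma cells assemble antibodies, and here they were followed in RNA from whole mouse liver. They were chosen by name: every row of the deposited count table called as a heavy chain (Igh), kappa (Igk) or lambda (Igl) segment or constant gene, together with Jchain, with at least 10 counts summed over the 16 columns. Of the 55421 genes in the table, 396 carried such a name and 154 reached 10 counts, against 23018 of all genes. The 154 comprised 61 heavy V genes, 69 kappa V genes, 3 lambda V genes, 9 J segments, 7 heavy constant genes, Igkc, 3 lambda constant genes and Jchain. The other 242 were not tested: 170 of them, with all 20 D segments among them, had 0 counts, which allows up to 3 counts in any column, and Ighe, the IgE constant gene, had 5 counts in all.

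The livers came from male C57BL/6 mice that received AAV8 at 6 months of age and underwent partial hepatectomy 4 weeks later. Hepatocytes lost the histone chaperone HIRA by 1 of 2 approaches, both driven by the Tbg promoter, which is active in hepatocytes: AAV8 Tbg-Cre in HIRA fl/fl mice, with wildtype mice given the same virus as control, or AAV8 Tbg-saCas9 with sgHIRA in wildtype mice, with sgRosa26 as control. Other liver cells, those of the B lineage included, were not targeted. The lobes removed at surgery are the libraries called before, and the liver left in place, taken 5 days later, gave those called after, so regeneration, lobe and time of collection cannot be told apart. Each of the 4 groups (control or HIRA KO, before or after) had 4 libraries, 2 from each approach. The columns of the count table are numbered 1 to 4 within a group, but no label ties such a number to a mouse or to an approach, so a number here names a column and does not pair a liver with its later sample.

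An antibody has heavy and light chains, and each chain joins a variable part, assembled from V, (D) and J segments, to a constant part. The heavy chain constant gene sets the class: Ighm and Ighd encode IgM and IgD, which naive B cells carry on their surface, and Igha and the Ighg genes encode IgA and the IgG subclasses after class switching. Jchain encodes the joining chain that links IgA and IgM into polymers. Plasma cells secrete antibody and hold far more immunoglobulin RNA per cell than B cells, and in the liver the polymeric immunoglobulin receptor, encoded by Pigr, carries IgA toward the bile. In bulk tissue, fewer cells of a type and less RNA per cell cannot be told apart.

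The germline segments that the results turn on are shown as the last bases of their GENCODE M21 transcripts, on the mm10 assembly. For the most counted kappa and heavy V genes, 120 bases are given 5′ to 3′, with the codons of the conserved Tyr-Tyr-Cys or Tyr-Phe-Cys motif that precedes the third complementarity-determining region in capitals. Igkv10-96 lies on chromosome 6 at 68631963 to 68632442 on the minus strand, Igkv1-135 on chromosome 6 at 67609713 to 67610508 on the plus strand, Ighv8-8 on chromosome 12 at 115294062 to 115294504 and Ighv1-59 on chromosome 12 at 115335082 to 115335514, the last 2 on the minus strand.
Igkv10-96: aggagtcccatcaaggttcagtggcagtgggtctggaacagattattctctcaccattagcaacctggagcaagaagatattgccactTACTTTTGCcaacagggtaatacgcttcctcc
Igkv1-135: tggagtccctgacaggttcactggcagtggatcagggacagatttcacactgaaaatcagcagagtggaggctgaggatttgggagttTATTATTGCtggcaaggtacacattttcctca
Ighv8-8: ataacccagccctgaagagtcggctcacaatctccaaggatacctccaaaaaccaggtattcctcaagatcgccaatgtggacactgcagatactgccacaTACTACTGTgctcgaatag
Ighv1-59: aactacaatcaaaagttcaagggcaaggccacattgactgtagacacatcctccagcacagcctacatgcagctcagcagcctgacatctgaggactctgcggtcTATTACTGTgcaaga

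V genes of one family are close copies, so a read can be split between them and single V gene values are uncertain. The tested V gene nearest to Igkv10-96 was Igkv10-94, identical at 331 of 347 aligned bases, and the nearest to Ighv1-59 was Ighv1-69, identical at 340 of 351. Igkv9-120 and Igkv9-124, which come up below because the call in one comparison moved between them, were identical at 336 of 353 bases. Their last 180 bases are printed with the 6 positions at which they differ in capitals.
Igkv9-120: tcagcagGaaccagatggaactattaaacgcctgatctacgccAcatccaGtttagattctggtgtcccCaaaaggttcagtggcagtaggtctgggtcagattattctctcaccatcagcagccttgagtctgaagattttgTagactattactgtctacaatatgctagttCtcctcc
Igkv9-124: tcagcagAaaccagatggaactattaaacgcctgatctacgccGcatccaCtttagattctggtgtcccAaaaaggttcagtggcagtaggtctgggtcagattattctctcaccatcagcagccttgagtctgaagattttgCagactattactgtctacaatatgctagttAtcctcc

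Depth was similar across the libraries, from 15103059 to 21738619 counts. Hira itself was lower in each HIRA KO column (3.04 to 4.56 CPM, counts scaled by TMM to a common library size) than in any control column (4.99 to 6.29 CPM). Alb, which marks hepatocytes, stood at 78780 CPM or more in all 16 columns. Principal components were taken over the 13176 genes with a mean CPM of at least 1. On the second, which held 26.5% of their variance, the HIRA KO columns numbered 1 and 2 lay between -47.4 and -36.2 at both times and the other 12 between -1.1 and 31.2. These 4 columns stand apart, so results that rest on them are given with and without them, and whether they share a deletion approach was not tested.

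Immunoglobulin RNA was a trace component of most livers and was far higher in the first HIRA KO column at each time. In control before, the 154 genes summed to 32.5, 21, 73.9 and 40.1 CPM (41.9 ± 22.8, SD, n = 4). In HIRA KO before, the sums were 1777, 268, 39.7 and 57.2 CPM. In control after they were 29.7, 25.0, 43.7 and 19.7 CPM (29.5 ± 10.3, SD, n = 4), and in HIRA KO after 2391.7, 125, 32.2 and 28.9 CPM. Thus columns 1 and 2 of HIRA KO lay above the 6 other columns of their time, and columns 3 and 4 lay within the range of the controls. Column 1 stood 42.5-fold above the control mean before and 81.0-fold above it after, and column 2 stood 6.4-fold and 4.22-fold above. As a share of all counts, column 1 of HIRA KO after held 0.263% immunoglobulin (95% Wilson interval 0.261 to 0.266%), and the lowest column, control before column 2, held 0.00209% (0.00189 to 0.0023%).

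**Figure D1:**
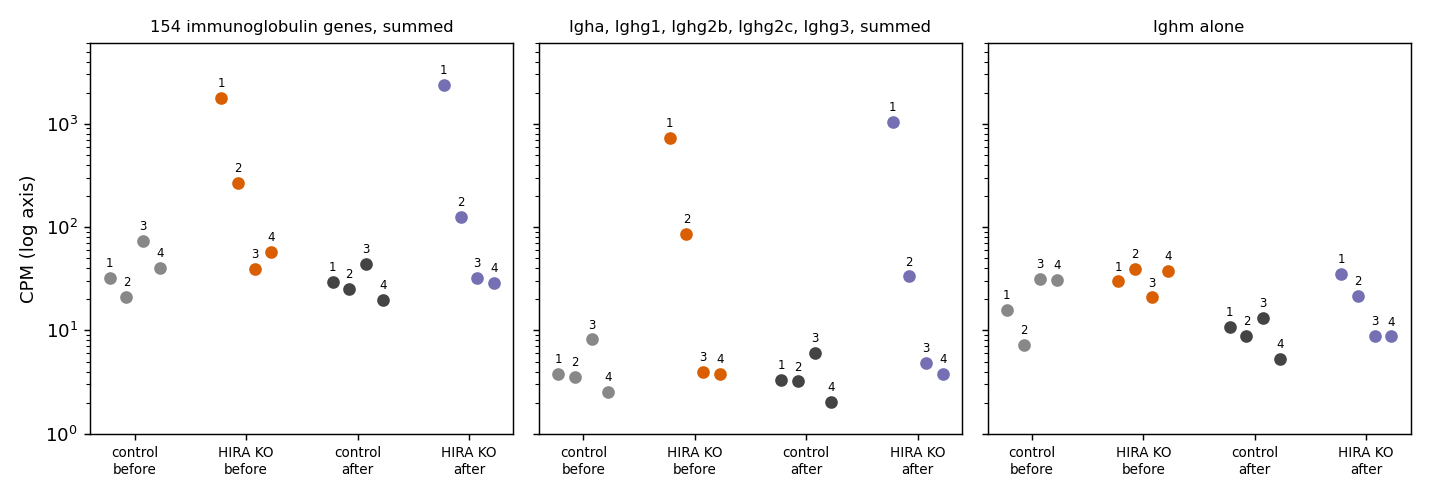
Summed TMM-scaled CPM (log axis) of all 154 immunoglobulin genes, of the 5 class-switched heavy constant genes and of Ighm alone. Each point is 1 library, labelled with its column number. Columns 1 and 2 of HIRA KO stand above the others in the first 2 panels, while the points of Ighm span 5.28 to 39.7 CPM with the groups overlapping.

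Most single genes were also highest in a column numbered 1, and for fewer of them column 2 lay above the other columns too. Of the 154 genes, 140 had their highest CPM of all 16 columns in a HIRA KO column numbered 1, or 90.9%, against 20.2% of all genes tested. Both column 1 and column 2 lay above the other 6 columns for 74 genes before and for 66 after, or 48.1% and 42.9%, against 14.9% and 12.5% of all genes. The minimum of 10 counts was itself met through these libraries for many genes: 104 of the 154 still reached it without the columns numbered 1, 72 without those numbered 1 and 2, and 51 in the 8 control columns alone.

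The class-switched IgG genes were high in those libraries. Ighg2c, the IgG2c heavy chain of this mouse strain, was at 405 and 38.6 CPM in columns 1 and 2 of HIRA KO before and at 485 and 16.1 CPM in those of HIRA KO after. In the 6 other columns of each time it was at 0.476 to 3.09 CPM before and 0.336 to 1.31 CPM after. Ighg2b, which encodes IgG2b and is identical to Ighg2c at 88.7% of aligned transcript bases, was at 162 and 26.4 CPM before and at 192 and 4.26 CPM after, against 0.377 to 2.07 and 0.229 to 2.06 CPM elsewhere. The 2 genes thus ranked columns 1 and 2 of HIRA KO in the same order, but not the other columns. Column 2 of control after, for example, had 17 Ighg2c and 4 Ighg2b counts, and column 1 of control after had 7 and 13. Whether a part of their counts is shared was not tested.

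Ighg1, which encodes IgG1, was highest in column 1 and far lower in column 2. It was at 91.9 CPM in column 1 of HIRA KO before and 297 CPM in column 1 of HIRA KO after, whereas column 2 was at 0.934 and 3.06 CPM. The other columns ran from 0.0538 to 0.149 CPM before and from 0 to 0.981 CPM after, below column 2 at both times. Ighg3, the least counted of the IgG genes, reached 5.19 and 5.76 CPM in columns 1 and did not exceed 0.667 CPM in any other.

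Igha, the IgA heavy chain, was at 66.6 and 19.6 CPM in columns 1 and 2 before and at 59.5 and 9.68 CPM after, and between 0.533 and 2.63 CPM in the 12 others. Jchain ran with it, at 74.8 and 14.7 CPM before and 61.1 and 6.66 CPM after, against 0.516 to 2.92 CPM in the others. Igkc, the only kappa constant gene, was at 354 and 47.1 CPM before and 535 and 25.2 CPM after, against 1.48 to 11.1 CPM. The 3 lambda constant genes were low in every library. Their sum reached 9.31 CPM in column 1 of HIRA KO before and 7.75 CPM in column 1 of HIRA KO after, and 0.355 to 1.78 CPM in the other 14 columns.

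The genes of the unswitched classes differed much less between these libraries. Ighm was at 15.7, 7.21, 31.8 and 31.0 CPM in control before and at 29.8, 39.7, 20.9 and 38.0 CPM in HIRA KO before. After, it was at 10.9, 8.88, 13.2 and 5.28 CPM in control and 35.5, 21.4, 8.77 and 8.74 CPM in HIRA KO. The groups overlapped at both times, but columns 1 and 2 of HIRA KO after lay above the 6 other columns of their time. Column 1 of HIRA KO was 1.39-fold above the control mean before and 3.71-fold above it after for Ighm, against 75.7-fold and 105-fold for Igkc. Column 2 was 1.85-fold and 2.23-fold above it for Ighm, against 10.1-fold and 4.93-fold for Igkc. Ighd was at 1.43 and 1.87 CPM in columns 1 and 2 of HIRA KO before, above the 0.476 to 1.29 CPM of the 6 others, and at 1.59 and 2.84 CPM after, where the 6 others ran from 1.72 to 2.28 CPM.

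**Figure D2:**
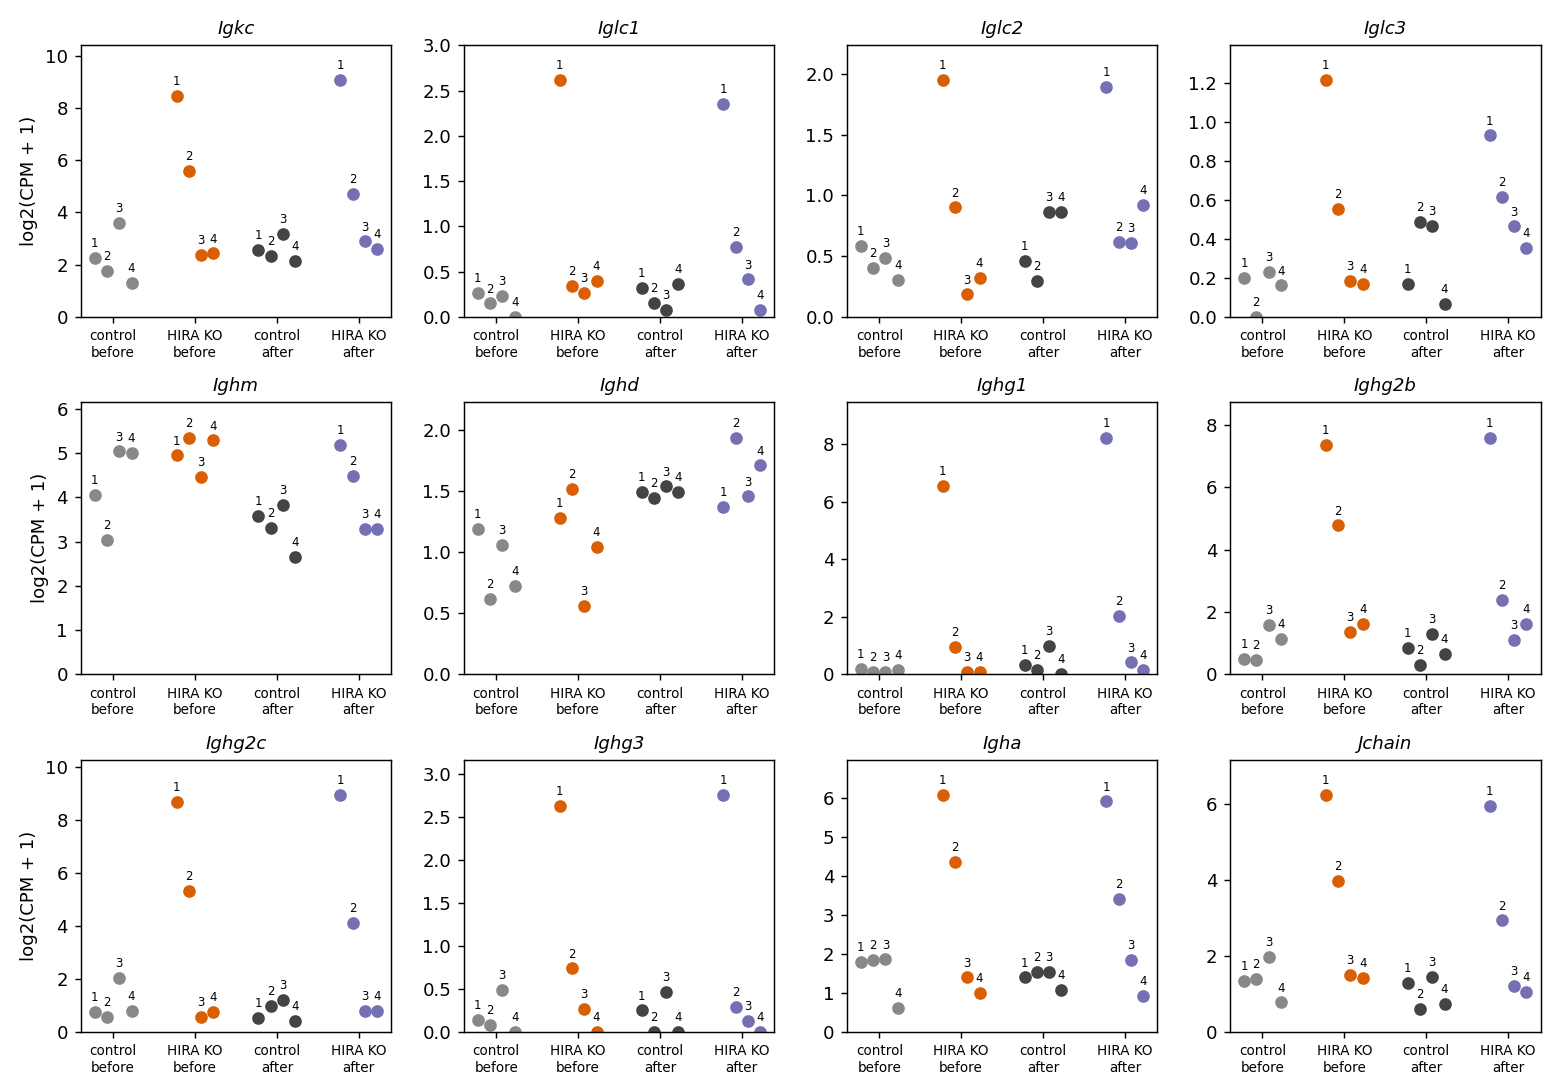
Levels of the 11 tested constant genes and Jchain as log2(CPM + 1), with 1 point for each library, labelled by its column number. Columns 1 of HIRA KO are the highest points of their time for each gene except Ighd at both times and Ighm before.

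The make-up of the heavy chain RNA differed accordingly. In the controls, Ighm and Ighd together took 68.6 to 92.6% of the heavy constant counts, from totals of 190 to 717 counts per library. In columns 3 and 4 of HIRA KO they took 68.3 to 91.1%. In columns 1 they took 4.1% before and 3.45% after, and in columns 2 they took 32.5% and 42.1%. Among the class-switched counts alone, Ighg2c held 55.4% in column 1 of HIRA KO before (95% Wilson interval 54.6 to 56.3%, of 13797 counts) and 46.7% in column 1 after (46.1 to 47.3%, of 22925 counts). In columns 2 it held 44.8% (42.1 to 47.5%) and 48.3% (44.7 to 51.8%). Ighg1 held 12.6% in column 1 before and 28.6% in column 1 after, and 1.08% and 9.2% in columns 2. In the 8 controls, with 42 to 143 switched counts each, Igha was the largest class in 6 columns, at 49.1% or more in 5 of them. These intervals cover counting error only.

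**Figure D3:**
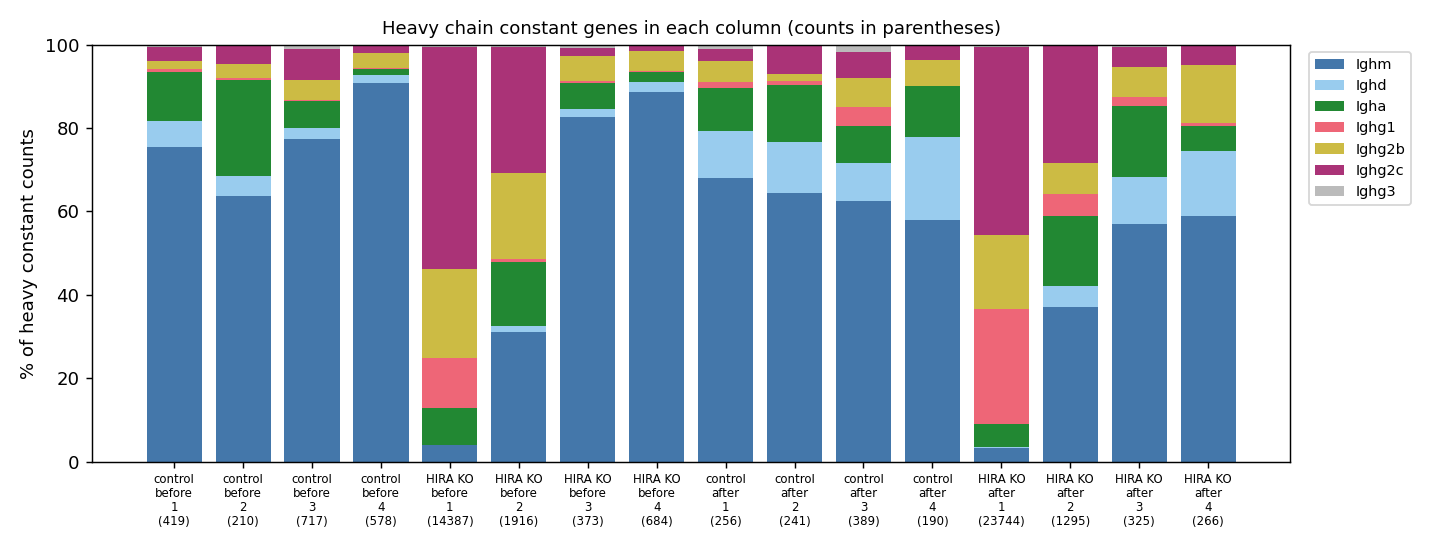
Percent of heavy chain constant counts taken by each gene in each of the 16 columns, with the number of counts in parentheses under each bar. Ighm fills most of the bar in the controls and in columns 3 and 4 of HIRA KO, and Ighg2c, Ighg2b and Ighg1 fill most of it in columns 1.

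Light chains were mostly kappa in every library. Lambda took 6.28 to 25.3% of the light constant counts in the controls, 2.56% and 1.43% in columns 1 of HIRA KO, 3.29% and 6.59% in columns 2, and 10.3 to 19.6% in columns 3 and 4. Variable and constant counts went together for kappa, with 0.761 to 1.45 kappa V counts per Igkc count over the 16 columns. For the heavy chain the same ratio was 0.299 and 0.241 in columns 1 of HIRA KO and 0.0433 to 0.226 in the controls. In 14 of the 16 columns, Ighm alone had more counts than all heavy V genes together. In column 4 of control before, for example, Ighm had 524 counts and the 61 heavy V genes had 25.

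The V genes were many and unequal. In column 1 of HIRA KO before, 59 of the 61 heavy V genes and 65 of the 69 kappa V genes had a count, and in column 1 after 59 and 68 had one. The most counted heavy V gene took 11.3% of the heavy V counts before (Ighv1-59, 95% Wilson interval 10.4 to 12.3%) and 18.8% after (Ighv8-8, 17.8 to 19.8%). The most counted kappa V gene took 18.8% before (Igkv1-135, 17.9 to 19.8%) and 18.4% after (Igkv10-96, 17.6 to 19.2%). The inverse Simpson index, the number of equally used genes that would give the same unevenness, was 22.3 and 15.4 for heavy V and 12.1 and 14.7 for kappa V. No single V gene held most of the counts in either library. Over all 16 columns the 5 most counted heavy V genes were Ighv8-8, Ighv1-59, Ighv1-26, Ighv1-80 and Ighv1-55, and the 5 kappa V genes were Igkv10-96, Igkv1-135, Igkv1-110, Igkv14-111 and Igkv1-117. Among the 3 lambda V genes, Iglv1 had 212 and 22 counts in columns 1 and 2 of HIRA KO before and 271 and 24 in those after, and no more than 9 in any other column.

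By family, the 33 Ighv1 genes held 58.4%, 68.4%, 57.3% and 48.6% of the heavy V counts in columns 1 and 2 before and columns 1 and 2 after. Igkv10-96 held 16.2%, 18.0%, 18.4% and 20.7% of the kappa V counts in the same order, and ranked 1 or 2 among the kappa V genes in all 4. V use varied between these libraries at both loci. The share of V counts that 2 libraries had in common ran from 43.9 to 61.0% over the 6 pairs for heavy V and from 61.7 to 73.3% for kappa V. As a description over genes that come from the same libraries, Pearson's r of the shares was 0.2 to 0.57 over 61 heavy V genes and 0.83 to 0.9 over 69 kappa V genes, and Spearman's rho was 0.38 to 0.62 and 0.38 to 0.65. The difference between the loci was not tested.

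Columns 1 before and after used overlapping but not equal sets. For 11 heavy V and 23 kappa V genes the Wilson interval of the share lay higher in column 1 after, and for 20 and 17 it lay lower. Ighv8-8 had 274 counts before and 1077 after, or 6.38% and 18.8% of heavy V counts. Ighv1-85 had 1 count before and 250 after, or 0.0233% and 4.36%. Ighv1-59 went the other way, with 486 and 271 counts, or 11.3% and 4.73%. These compare 2 libraries and not the conditions.

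**Figure D4:**
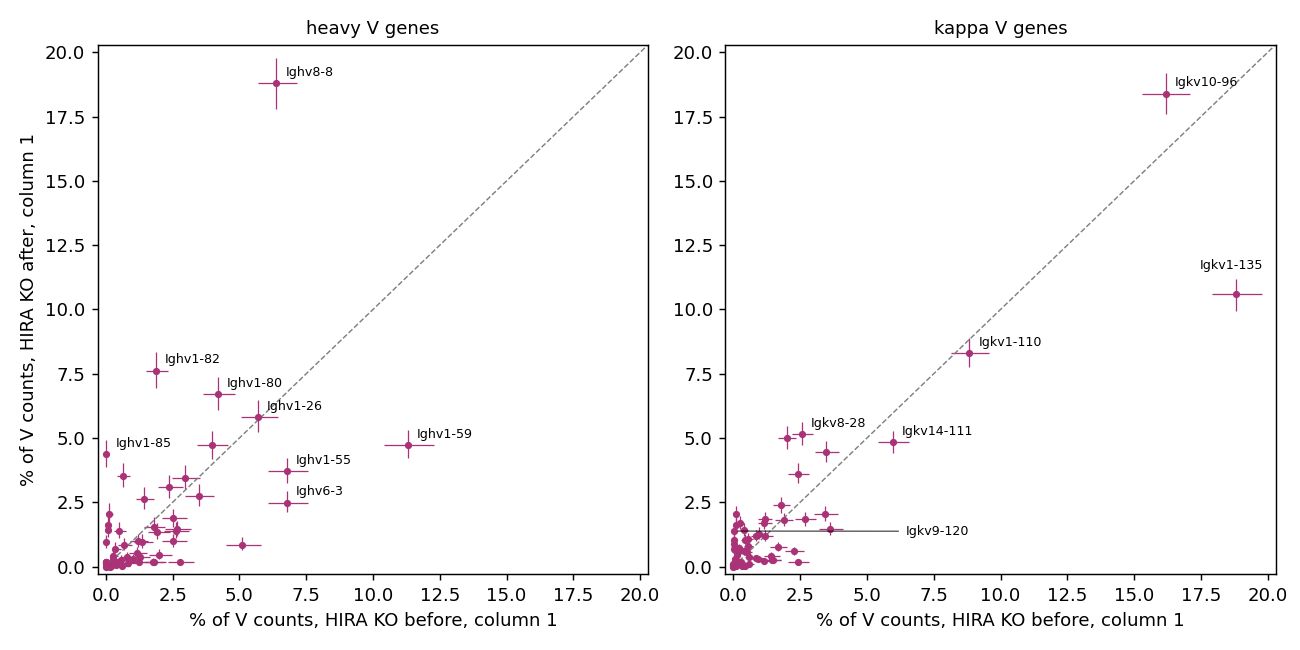
Share of the V counts taken by each heavy V gene (left) and kappa V gene (right) in column 1 of HIRA KO before (horizontal axis, %) and column 1 of HIRA KO after (vertical axis, %). Bars are 95% Wilson intervals, and the dashed line marks equal shares. Ighv8-8 and Ighv1-85 lie above the line, and Ighv1-59 and Igkv1-135 below it.

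Whether HIRA loss changed immunoglobulin RNA before regeneration was asked by comparing HIRA KO with control before. By the quasi-likelihood test of edgeR, adjusted over 23018 genes by Benjamini and Hochberg, 0 of the 154 passed an adjusted p of 0.05, against 0.0348% of all genes called higher and 0.00434% called lower. The median log2 fold change of the 154 was 3.55, against 0.01 over all genes, and the smallest adjusted p was 0.127 (Ighv1-76, log2 fold change 4.59 ± 1.10, SE). Without adjustment, 61 members had p under 0.05 in the direction of HIRA KO and 0 in the other, against 7.22% and 5.95% of all genes. This count and the median are in part set by the minimum of 10 counts. Without the HIRA KO columns numbered 1 it was met by 67.5% of the members and 96.3% of all genes, so the 2 shares are not like for like. Igkc had a log2 fold change of 4.46 ± 1.79 (edgeR adjusted p = 0.325), Ighg2c 6.49 ± 2.46 (adjusted p = 0.305), Jchain 3.78 ± 1.48 (adjusted p = 0.316) and Ighm 0.58 ± 0.52 (adjusted p = 0.676).

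The size of the difference belonged to the libraries that stand apart. Without the columns numbered 1 the median log2 fold change was 1.07, and without those numbered 1 and 2 it was -0.04, with -0.04 over all genes. All 154 genes stayed in these fits, although 104 reached 10 counts without the columns numbered 1 and 72 without those numbered 1 and 2. These medians thus rest in part on genes with few counts. The count of members called was 0 in each, against 0.0217% of all genes called higher in each. With DESeq2, 6 members passed (Ighg2b, Ighg2c, Igkc, Igkv1-110, Igkv1-135 and Igkv10-96), all higher in HIRA KO, against 1.44% of all genes with an adjusted p called higher and 0.931% called lower, and 114 members had none. The groups did not overlap for 8 members, all higher in HIRA KO, against 3.54% of all genes higher and 4.53% lower. Iglc1 was one of them, with a difference in mean log2(CPM + 1) of 0.75 and an exact two-sided permutation p of 0.0286, the smallest that 4 against 4 allows, among 48 such tests over the constant genes and Jchain of which 2 gave p under 0.05. Adjusted over the 48 permutation tests, the p of Iglc1 was 0.596.

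After regeneration the same comparison gave a like result. edgeR called 0 of the 154, against 0.2% of all genes called higher and 0.291% called lower. The median log2 fold change was 3.89, with 0.02 over all genes, and 74 members had an unadjusted p under 0.05 toward HIRA KO and 0 the other way, against 7.75% and 8.02%. This count and the median are again in part set by the minimum of 10 counts. Without the HIRA KO columns numbered 1 it was met by 67.5% of the members and 96.3% of all genes, so the shares are not like for like. The smallest adjusted p was 0.0827, for Igkv9-120 (log2 fold change 6.34 ± 1.59). Igkc had a log2 fold change of 4.81 ± 1.81 (adjusted p = 0.22), Ighg2c 7.36 ± 2.60 (adjusted p = 0.194) and Ighm 0.96 ± 0.53 (adjusted p = 0.407). Without the columns numbered 1 the median was 0.68, and without those numbered 1 and 2 it was 0, and 0 members were called in each, against 0.0261% and 0.0565% of all genes called higher. All 154 genes again stayed in these fits, many of them with few counts in the columns left. DESeq2 called 14 members, all higher in HIRA KO and with Igkc, Ighg2b, Ighg2c, Igha and Jchain among them, against 3.2% of all genes with an adjusted p called higher and 2.73% called lower, and gave no adjusted p for 117. The groups did not overlap for 3 members (Igkv9-124, Igkv9-120 and Igkv5-39), all higher in HIRA KO, against 3.65% higher and 4.45% lower.

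In control livers, the comparison of after with before asked what changed with regeneration. edgeR called 0 of the 154, against 6.04% of all genes higher and 4.17% lower, with 1 and 2 members under an unadjusted p of 0.05 in the 2 directions against 12.7% and 10.9%. In the 8 control columns alone, 33.1% of the members and 87.5% of all genes reached 10 counts, so these shares are not like for like. DESeq2 called 1 higher, Ighd, and 0 lower, against 10.5% and 8.71% of all genes with an adjusted p. Ighd was at 1.29, 0.538, 1.09 and 0.651 CPM before (0.892 ± 0.357, SD, n = 4) and at 1.82, 1.72, 1.91 and 1.82 CPM after (1.82 ± 0.077, SD, n = 4). All 4 values after lay above all 4 before, which held for 2 members (Ighd and Igkv1-117) and 10% of all genes, and the reverse held for 1 (Ighv6-3) and 8.98%. The log2 fold change of Ighd was 1.02 ± 0.35 with an edgeR adjusted p of 0.0778 and a DESeq2 adjusted p of 0.0312. The edgeR fit took the spread from all 4 groups, the outlying HIRA KO columns included. With only the 2 control groups in the fit, the edgeR adjusted p of Ighd was 0.0321. The exact permutation test gave 0.0286, the smallest that 4 against 4 allows, which restates the lack of overlap. Adjusted over the 48 permutation tests it was 0.596. Ighd counts were 10 to 26 per library before and 29 to 38 after. In HIRA KO, Ighd had a log2 fold change of 0.80 ± 0.35 (edgeR adjusted p = 0.142). Ighm, by contrast, had a log2 fold change of -1.16 ± 0.53 in control (adjusted p = 0.21) and of -0.78 ± 0.52 in HIRA KO (adjusted p = 0.369).

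In HIRA KO livers, after against before, edgeR called 1 member higher and 0 lower, against 6.48% and 5.53% of all genes, and 9 and 6 had an unadjusted p under 0.05, against 14.2% and 13.2%. It was Igkv9-120, with 2, 0, 0 and 0 counts before and 131, 8, 2 and 3 after (log2 fold change 5.47 ± 1.48, adjusted p = 0.0269). Column 1 after held most of these counts, and the groups overlapped at 2 counts. The call was lost when any 1 of the 4 columns before, or column 1 after, was left out. DESeq2 gave it no p and called 0 members, against 10.7% of all genes with an adjusted p called higher and 10.2% lower. The groups did not overlap for 1 member, Ighv1-56, which was lower after, against 8.61% of all genes higher and 7.45% lower. With the FPKM values and limma, Igkv9-124 and not Igkv9-120 was called, at 4, 0, 0 and 1 counts before and 8, 2, 1 and 3 after, so the call moved between the pair of near copies printed above. The difference between the genotypes in their change with regeneration was called for 0 members by edgeR, against 0% of all genes in each direction, with 1 and 2 members under an unadjusted p of 0.05 against 3.97% and 2.85% of all genes. DESeq2 called 0, against 0.296% and 0.117%.

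Genes of the cells that make antibody were compared in the same libraries. Mzb1, a chaperone of marginal zone B cells and plasma cells, was at 2.59 and 0.6 CPM in columns 1 and 2 of HIRA KO before and 1.68 and 0.133 CPM in those after, and did not exceed 0.484 CPM in the 12 others. Irf4, a transcription factor needed by plasma cells, was at 3.28 and 3.31 CPM in columns 1 and at 0 to 0.745 CPM in the 14 others. Pou2af1, a B cell coactivator, was at 4.92 and 2.9 CPM in columns 1 and at 0.161 to 1.47 CPM elsewhere. Prdm1, which drives plasma cell differentiation, was at 1.53 and 1.93 CPM in columns 1 and 2 before and 1.81 and 0.799 CPM after, and at 0.136 to 1.03 CPM in the 12 others, so column 2 after lay within their range. Tnfrsf17, the receptor BCMA, had at most 1 count in any library, which is under the limit that a count of 0 allows. Sdc1 and Xbp1, which hepatocytes express too, lay at 222 to 384 and 175 to 330 CPM in all 16.

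No gene of the plasma cell list passed edgeR's test between HIRA KO and control at either time (0 of 17 tested, with a median log2 fold change of 0.16 before and 0.10 after). The same held for the B cell list (0 of 16, medians 0.74 and 0.14). Of all genes, 0.0348% were called higher and 0.00434% lower before, and 0.2% and 0.291% after. Summed over the 16 plasma cell genes without Jchain, columns 1 and 2 of HIRA KO before were at 801 and 831 CPM. The 6 other columns before ran from 669 to 993 CPM. After, columns 1 and 2 were at 1108.1 and 983 CPM against 844 to 1088.3 CPM. Only column 1 after lay above the 6 others of its time. Mzb1, Irf4, Pou2af1 and Prdm1 stood far below these sums, which therefore say little about them. Summed over the 16 B cell genes, columns 1 and 2 of HIRA KO before were at 33.1 and 23.5 CPM and the 6 other columns at 8.29 to 16.2 CPM, and after they were at 32.6 and 44.9 CPM against 20.5 to 26.7 CPM. Ms4a1 (CD20) and Cd79a, which mark B cells, reached 1.31 and 2.7 CPM at most over the 16 columns. Markers of some other cells stood higher in the same libraries before regeneration, and those of others did not. The 8 stellate cell and matrix genes summed to 676 and 487 CPM in columns 1 and 2 of HIRA KO before against 227 to 268 CPM in the 6 others, and to 486 and 378 CPM against 178 to 418 CPM after. Krt19, a bile duct keratin, was at 52.7 CPM in column 1 of HIRA KO before and 1.11 to 4.4 CPM in the 15 others. The 7 cholangiocyte genes summed to 167 and 119 CPM in columns 1 and 2 before against 69.4 to 98.6 CPM. After, they summed to 154 and 123 CPM against 95 to 136 CPM. The 12 T and NK cell genes summed to 9.9 and 8.8 CPM in columns 1 and 2 before against 3.08 to 6.93 CPM, and to 5.89 and 8.79 CPM against 5.26 to 9.97 CPM after. The 7 neutrophil genes stood at 6.24 and 7.8 CPM before against 1.44 to 6.37 CPM, and at 18.3 and 13.4 CPM against 7.54 to 13.1 CPM after. The 7 hepatocyte genes were also higher before, at 158100 and 141499.3 CPM against 102410.1 to 133969.2 CPM. After, they were at 128540.7 and 140812.2 CPM against 107023.8 to 154878.5 CPM. Not higher before were macrophage (285 and 270 against 198 to 529 CPM), endothelial (169 and 199 against 185 to 238 CPM) and red blood cell genes (404 and 261 against 264 to 661 CPM). The part of these cells in the immunoglobulin values was not tested.

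With regeneration, several B cell genes rose in control livers: 4 of 16 passed edgeR's test upward and 0 downward, against 6.04% and 4.17% of all genes. Ms4a1 went from 0.149 to 0.286 CPM before to 0.313 to 1.31 CPM after (log2 fold change 1.95 ± 0.45, adjusted p = 0.00935). Fcer2a, the IgE receptor CD23 of naive B cells, rose by 1.80 ± 0.51 (adjusted p = 0.0308), Bank1, a B cell scaffold protein, by 1.30 ± 0.26 (adjusted p = 0.00411) and the tetraspanin Cd37 by 1.09 ± 0.27 (adjusted p = 0.0143), all log2 with edgeR. Of these, Fcer2a did not pass without column 2, 3 or 4 before or column 1, 3 or 4 after (adjusted p up to 0.0851), nor Cd37 without column 4 before (0.0523). In HIRA KO, 3 of 16 rose and 0 fell, against 6.48% and 5.53% of all genes: Cr2, a complement receptor (2.04 ± 0.60, adjusted p = 0.0359), Bank1 (0.81 ± 0.26, adjusted p = 0.0489) and Cd37 (0.82 ± 0.26, adjusted p = 0.0498). These are differences of low levels, since no library exceeded 1.55 CPM of Cr2. None of the 3 passed when column 3 or 4 before or column 1 or 2 after was left out, and the adjusted p reached 0.293 for Cr2, 0.137 for Bank1 and 0.146 for Cd37 over all alternatives. The 10 Kupffer cell and macrophage genes all rose in both genotypes over the same interval.

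**Figure D5:**
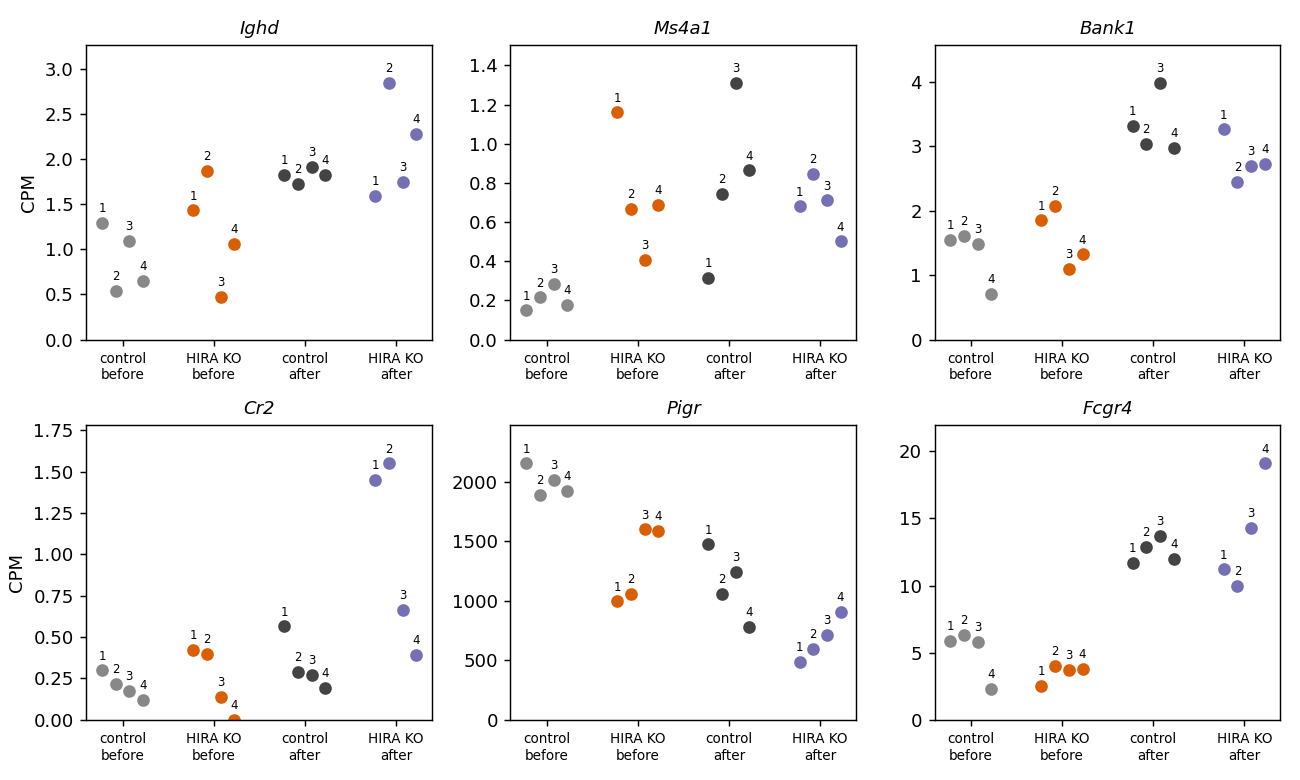
TMM-scaled CPM of Ighd, of 3 B cell genes (Ms4a1, Bank1 and Cr2), of Pigr and of the Fc receptor gene Fcgr4, with 1 point for each library, labelled by its column number. In control, the points of Ighd, Ms4a1, Bank1 and Fcgr4 after lie above those before, and those of Pigr below.

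Of the 11 genes for receptors and transport of immunoglobulin, 4 rose and 1 fell in each genotype between before and after, where 6.04% and 4.17% of all genes did in control and 6.48% and 5.53% in HIRA KO. Pigr, on chromosome 1 at 130826684 to 130852249 in mm10, fell in both. It was at 2156.4, 1891.2, 2014.7 and 1925.1 CPM in control before and at 1474.6, 1061.1, 1240.3 and 784 CPM in control after (log2 fold change -0.81 ± 0.22, edgeR adjusted p = 0.0239). In HIRA KO it was at 996, 1059, 1601.4 and 1586 CPM before and at 489, 595, 716 and 905 CPM after (-0.95 ± 0.22, adjusted p = 0.00948). Before regeneration all 4 HIRA KO values lay below all 4 control values, as for 4.53% of all genes, with a log2 fold change of -0.61 ± 0.22 that did not pass (adjusted p = 0.265). The lowest Pigr value of each time in HIRA KO was in column 1, the column with the most Igha and Jchain, and a relation between them was not tested.

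The 4 that rose in each genotype were Fcgr1, Fcgr3 and Fcgr4, receptors through which macrophages bind IgG, and Fcer1g, which encodes a signaling chain of Fc receptors. Fcgr4 rose by 1.30 ± 0.25 in control (edgeR adjusted p = 0.00373) and by 1.96 ± 0.26 in HIRA KO (adjusted p = 0.000294), and Fcgr1 by 1.28 ± 0.28 (adjusted p = 0.0073) and 1.96 ± 0.29 (adjusted p = 0.000577), all log2. Fcgrt, which protects IgG from breakdown, had log2 fold changes of -0.32 ± 0.21 in control and -0.23 ± 0.21 in HIRA KO (adjusted p = 0.411 and 0.538). Among 13 tested genes for the survival, homing and stimulation of B and plasma cells, 1 rose and 1 fell in each genotype: Cd40 rose and Ccl25 fell in control, and Tgfb1 rose and Cxcl12 fell in HIRA KO, a share near that of all genes. Tnfsf13b, the survival factor BAFF, and Cxcl13, which attracts B cells, passed in no comparison. Between HIRA KO and control, 0 of the 11 receptor genes and 0 of the 13 survival genes passed at either time, where at most 0.291% of all genes did in either direction.

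The lists for other cells gave no call between HIRA KO and control at either time either: 0 of 12 T and NK cell, 10 macrophage, 7 neutrophil, 5 red blood cell, 7 cholangiocyte, 8 stellate cell and matrix, 6 endothelial, 7 hepatocyte, 4 germinal center and 3 early B cell genes. Of all genes, 0.0348% were called higher and 0.00434% lower before, and 0.2% and 0.291% after, so 0 calls in lists this short say little. After against before, the plasma cell list had 2 genes higher in each genotype (Fkbp11 and Cd38, which act in many cells), and the germinal center list had 2 higher in control (Mybl1 and S1pr2) and 1 in HIRA KO (Mybl1). The early B cell, red blood cell and stellate cell lists had 0 in either direction. Of the rest, in control and in HIRA KO in turn, 1 and 0 T and NK cell genes, 2 and 2 neutrophil genes and 1 and 0 cholangiocyte genes were higher and none lower, 1 endothelial gene was higher and 1 lower in each, and 0 and 1 hepatocyte genes were lower. Of all genes, 6.04% were higher and 4.17% lower in control, and 6.48% and 5.53% in HIRA KO. With such shares, single calls in lists this short are not a result about the lists.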

How the data were processed

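RNA-seq counts were taken from 16 mouse liver libraries in 4 groups of 4. The libraries were made from poly(A) RNA with a strand-marking kit. Per the study's methods, the authors trimmed reads with Trim Galore, aligned them to mm10 with STAR and deposited raw counts per gene made with HOMER; the submitters' processing notes name STAR, HTSeq and Cufflinks. The second deposited table holds FPKM values by the authors, whose tool is not given in the sources used here. The strand setting of the counting was not given either.

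The members, lists and tests were chosen with earlier results of these data known. Genes with at least 10 counts in total were tested with edgeR 4.0.16 (TMM scaling, glmQLFit and glmQLFTest, 4 groups in 1 fit, R 4.3.3), with Benjamini-Hochberg adjustment over 23018 genes at 0.05. CPM values are scaled by TMM, and ± after a log2 fold change is its SE. DESeq2 1.42.0, other scalings, filters and fits, and limma 3.58.1 on log2(FPKM + 0.1) and log2(FPKM + 1), for genes at 0.1 FPKM or more in 4 columns, were alternatives. The constant genes and Jchain were also compared by an exact permutation test. Named genes were all constant genes, Jchain, the most counted V genes (5 heavy, 5 kappa and 3 lambda), called V genes, and called and defining genes of the lists. The V genes Ighv1-85, Ighv1-76, Igkv9-124, Igkv5-39 and Ighv1-42, those named from DESeq2's calls, and Krt19 were named after their values were seen. The fits were tested on simulated data without outlying columns, a setting unlike that of the immunoglobulin genes, so that test says little about them. No 2 columns of a group agreed within sampling noise, with a chi-square of 12.4 or more per degree of freedom. That the libraries of a group are separate mice rests on the labels, and p-values measure the spread between them. Coordinates and transcripts are from GENCODE M21 (mm10), which matched all 396 names by ID.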

Additional observations from a re-analysis of the deposited data

Results flagged for a closer look

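Of 52 sets of 4 columns (12 genes and the summed level, each in 4 groups, on the log2(CPM + 1) scale), 5 held a library whose gap to its nearest neighbour, as a fraction of the range of the group, passed Dixon's 95% critical value for 4 samples. Chance gives about 1 in 20 such sets. 3 of them concern column 1 of HIRA KO: Ighg1 before (0.866), Iglc1 before (0.947) and Ighg3 after (0.895), each with that column highest. The other 2 lie in control before, where column 4 was lowest for Igha (0.952, at 0.533 CPM against 2.49 to 2.63 CPM) and column 3 was highest for Ighg2c (0.86). The summed level and Igkc were not among them, since column 2 lies between column 1 and the rest.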

How the results depend on the processing

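Most of these results rest on the HIRA KO columns numbered 1 and 2. The controls held 25 to 105 heavy V and 24 to 200 kappa V counts each, so that single V genes there rest on few counts. No paired analysis was possible because the columns carry neither the deletion approach nor the replicate numbers of the labels.

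Settings with and without the HIRA KO columns numbered 1, or 1 and 2, were added after seeing the data, as were the alternatives for Ighd, Igkv9-120, Igkv9-124 and the list genes. The cause of the changes below was not tested, except that leaving out columns removes samples.

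For the number of immunoglobulin genes called, HIRA KO against control went from 0 to 6 before and from 0 to 14 after with DESeq2. Leaving out single columns gave 0 before and 0 to 1 after (1 without column 3 or column 4 of HIRA KO after, each time Igkv9-120). In control, after against before, the count was 1 (Ighd) with DESeq2, with only the groups compared and without the HIRA KO columns numbered 1 and 2, and 0 when single columns were left out. In HIRA KO it went from 1 to 0 with DESeq2, the filter of 1 count, filterByExpr, only the groups compared, and without columns 1 and 2, and was 0 to 3 when single columns were left out. It was 0 without column 1 or column 2 before or column 1 after, 2 without column 2 after and 3 without column 4 after. Without column 3 or column 4 before it was 1, but the gene was Ighv1-42, lower after, and not Igkv9-120. The adjusted p of Ighd in control ranged from 0.0274 to 0.208 over its alternatives, with edgeR, DESeq2 or limma. The interaction gave 0 throughout.

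The log2 ratio of the mean summed level of HIRA KO to control was 1.54 before and 1.07 after without the columns numbered 1, and 0.21 and 0.05 without those numbered 1 and 2. Leaving out single columns gave 1.54 to 4.10 before, 1.07 to 4.85 after and, for HIRA KO after against before, -3.11 to 2.41. The ends of that last range are the values without column 1 after and without column 1 before. The mean share of Igha in heavy constant counts of control after was 16.6% by FPKM and 10.40 to 12.00% when single columns were left out.

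Among Jchain, Igkc, Ighm and Igha, values that did not pass either way changed sign as follows, on the log2 scale. Without the HIRA KO columns numbered 1 and 2, HIRA KO against control was -0.13 for Igkc and -0.65 for Igha before and -0.13 for Ighm after, Igha after against before in HIRA KO was 0.43 and the interaction of Ighm was -0.59. Without those numbered 1, the interaction was -0.40 for Igha, -0.18 for Ighm, -0.72 for Igkc and -0.35 for Jchain, and Igkc after against before in HIRA KO was -0.60. With log2(FPKM + 0.1) and log2(FPKM + 1) in turn, Igha in control was 0.11 and 0.01, and the interaction was -0.27 and -0.19 for Igha, -0.61 and -0.53 for Igkc and -0.17 and -0.22 for Jchain. With single columns left out, after against before in HIRA KO spanned -2.33 to 1.30 for Igha, -3.07 to 2.95 for Igkc and -2.93 to 1.54 for Jchain, Igkc in control spanned -0.18 to 0.99, and the interaction spanned -1.98 to 1.64 for Igha, -0.14 to 0.69 for Ighm, -3.19 to 2.82 for Igkc and -2.29 to 2.18 for Jchain.

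Igkv9-120 in HIRA KO lost its call under 11 alternatives, and the B cell genes Bank1, Cd37 and Cr2 in HIRA KO lost theirs under 11, 10 and 8. In control, Fcer2a lost its call under 8, Cd37 under 1 and Ms4a1 under 1, log2(FPKM + 1) with limma (adjusted p = 0.0535). Pigr kept its fall in HIRA KO under all alternatives run, with adjusted p from 0.000319 to 0.0478, and in control lost it without column 1 before, column 2 after or column 4 after (adjusted p up to 0.0697).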

Other observations

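The FPKM table lists the J segments at values that do not follow their counts. Ighj2 stood at 1291320 FPKM in column 1 of HIRA KO before and 1069160 FPKM in column 1 of HIRA KO after, or 61.3% and 58.4% of the summed FPKM of those libraries, although it had 44 counts over all 16 columns. Igkj4 was listed at 6160.2 FPKM in column 4 of HIRA KO after and at 0 in the others, and the other 7 tested J segments were at 0 in all columns. J segments were therefore left out of sums of FPKM.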
